A study of Mus musculus with 10 samples.

Results

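The class I, IIb and IV histone deacetylases of the mouse are Hdac1, Hdac2, Hdac3 and Hdac8 (class I), Hdac6 and Hdac10 (class IIb) and Hdac11 (class IV). These 7 genes were taken by name from the 51789 genes of the count table, and all 7 were among the 15232 genes that passed the filter on low counts. Their RNA was measured in cardiomyocytes isolated on day 4 after myocardial infarction (MI). The question was whether it differs when the kinase GRK5 is overproduced in cardiomyocytes. TgGRK5-MI mice carried a GRK5 transgene specific to cardiomyocytes, and NLC-MI mice were littermates without the transgene. Each group had 5 mice with 1 RNA-seq library each, and both groups had MI, so no uninjured heart enters the comparison. The labels give no age, sex or strain, and the promoter of the transgene is not given in the sources used here.

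Histone deacetylases remove acetyl groups from lysines of histones, which generally tightens chromatin and lowers transcription, and they also act on many other proteins. Class I enzymes are mostly nuclear. Hdac1 and Hdac2 are the catalytic subunits of the NuRD, Sin3, CoREST and MiDAC complexes, Hdac3 is that of the NCoR and SMRT corepressor complex, and Hdac8 deacetylates the cohesin subunit Smc3. Of the others, Hdac6 is a mainly cytoplasmic deacetylase of tubulin, cortactin and Hsp90 that also carries ubiquitinated proteins to the aggresome, Hdac10 acts on acetylated polyamines, and Hdac11 removes fatty acyl groups. In heart muscle, inhibitors of these enzymes are known to blunt hypertrophy in animal models.

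The libraries held from 7968779 to 23381527 counts. Levels are given in CPM, counts scaled to a common library size after correction of each library total with a TMM factor. The floor set here, 3 counts, was equal to 0.121 CPM in the deepest library and 0.393 CPM in the shallowest. Grk5 itself, the check of the labels, had a mean of 60.4 CPM (SD 9.50, n = 5) without the transgene and 1222 CPM (SD 472, n = 5) with it, and the groups did not overlap. The summed level of 10 cardiomyocyte markers ran from 59182 to 151801 CPM in NLC-MI and from 63263 to 122990 CPM in TgGRK5-MI. RNA of other cells was present in both groups: 10 fibroblast markers summed to between 4157 and 25013 CPM over all libraries, 10 macrophage markers to between 744 and 2450 CPM, and 10 endothelial markers to between 1194 and 2617 CPM. Of the granulocyte and lymphocyte lists, no library exceeded 23.8 CPM, and Elane was at 0. Exact permutation tests of the marker sums between the groups gave p values of 0.254 or more. In such bulk samples, fewer cells of a type and less RNA per cell cannot be told apart.

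Among the 7 deacetylases, Hdac6 was the only member past an unadjusted p of 0.05, and it was lower in TgGRK5-MI. No member was past this p in the higher direction, and no member had an adjusted p under 0.10. Over all genes tested, 2.08% were lower and 1.77% were higher at an unadjusted p under 0.05, and 0.0788% had an adjusted p under 0.10. The groups overlapped for all 7 members, whereas 1.00% of all genes tested had groups that did not overlap. The 4 class I members had log2 fold changes between 0.15 and 0.20, and the 3 others had values from -0.56 to -0.05. The median over the members was 0.15, beside 0.00 over all genes tested, and 1 called member of 7 is too few to read against the background shares.

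**Figure D1:**
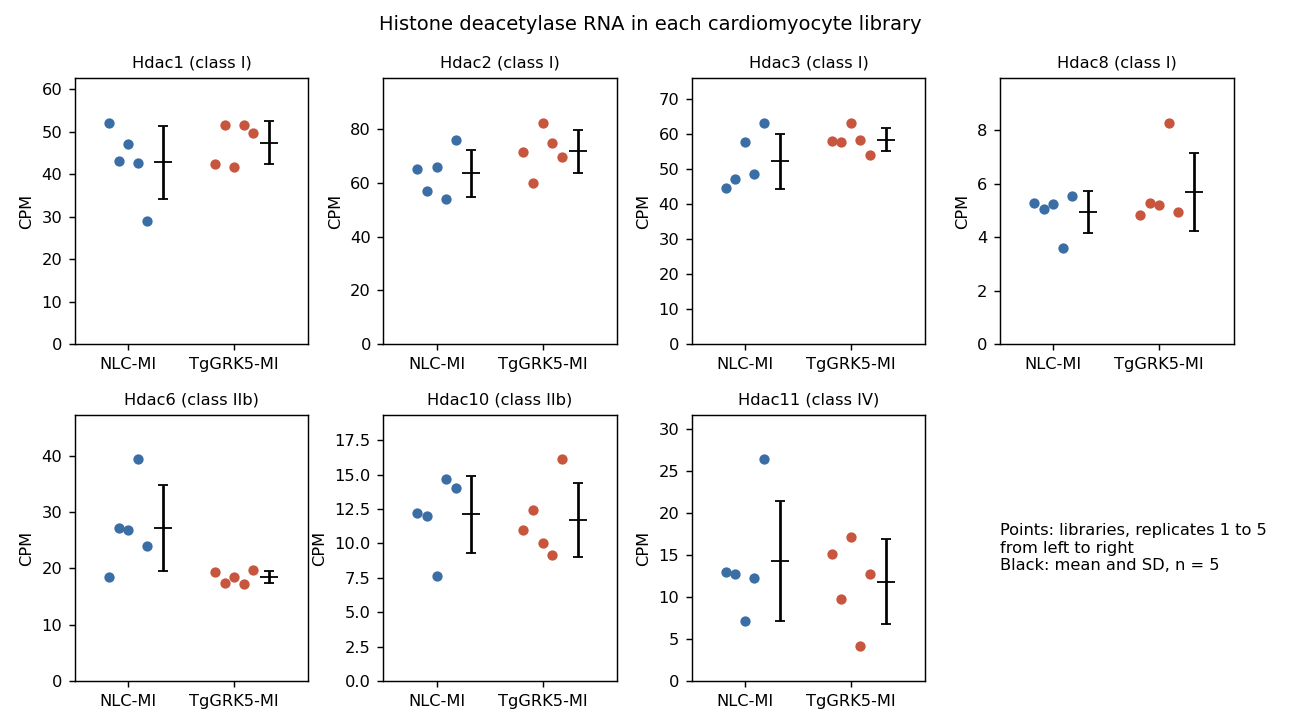
CPM of the 7 deacetylases in the 5 NLC-MI and 5 TgGRK5-MI libraries (points, replicates 1 to 5 from left to right), with the mean and SD of each group in black. The TgGRK5-MI values of Hdac6 lie between 17.2 and 19.8 CPM, under 4 of the 5 NLC-MI values, while the groups overlap broadly for Hdac1, Hdac10 and Hdac11.

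Hdac6 and Hdac8 are the X-linked members. Their start regions are shown because Hdac6 is the member with the lowest p and Hdac8 is the member with the lowest level. Hdac6 (ENSMUSG00000031161) spans chrX:7930120-7947889 on the minus strand of GRCm38, and Hdac8 (ENSMUSG00000067567) spans chrX:102284639-102505359, also on the minus strand. The sequences are the 250 bases before the annotated start from RefSeq (GRCm38.p6), chrX:7947890-7948139 for Hdac6 and chrX:102505159-102505408 for Hdac8, written 5′ to 3′ along the gene. The RefSeq start of Hdac8 lies inside the GENCODE span given above, so that 201 of the 250 bases of its stretch fall within that span, whereas for Hdac6 0 of 250 bases do. Capitals mark the GC box (GGGCGG) and the CCAAT box (CCAAT) on either strand.
Hdac6: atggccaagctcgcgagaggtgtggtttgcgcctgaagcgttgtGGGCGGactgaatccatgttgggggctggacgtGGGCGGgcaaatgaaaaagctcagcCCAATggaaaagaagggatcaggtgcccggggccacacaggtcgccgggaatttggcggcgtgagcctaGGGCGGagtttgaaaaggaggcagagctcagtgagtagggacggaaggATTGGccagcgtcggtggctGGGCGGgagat
Hdac8: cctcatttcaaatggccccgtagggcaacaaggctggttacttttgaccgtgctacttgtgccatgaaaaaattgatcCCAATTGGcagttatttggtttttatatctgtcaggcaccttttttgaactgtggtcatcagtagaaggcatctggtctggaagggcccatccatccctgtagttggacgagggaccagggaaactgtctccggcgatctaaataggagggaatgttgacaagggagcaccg

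The Hdac6 stretch held 4 GC boxes and 2 CCAAT boxes and was 61.2% G and C, and the Hdac8 stretch held 0 GC boxes and 2 overlapping CCAAT boxes and was 48.4% G and C. Of 32851 mouse promoters cut to the same length, 32.7% held a GC box and 33.8% a CCAAT box, and the median G and C share was 52.4%. The core of the NFAT site (GGAAA, either strand) was found 1 time in each stretch, as in 55.6% of all promoters, and the MEF2 motif in neither, against 2.92% of all promoters. TATAAA was found 1 time for Hdac8 and 0 times for Hdac6 (12.4% of all promoters), and the letters of the E-box (CACGTG) and the CRE (TGACGTCA) in neither. Promoters of Hdac2 and Hdac11 were also matched, each with 1 GC box; for Hdac11, 150 of the 250 bases lie within the GENCODE gene. Hdac1, Hdac3 and Hdac10 were not matched. A match of letters is a description and not a bound site.

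Hdac6 was at 18.5, 27.2, 26.8, 39.4 and 24.0 CPM in NLC-MI replicates 1 to 5. In TgGRK5-MI replicates 1 to 5 it was at 19.4, 17.5, 18.5, 17.2 and 19.8 CPM. All 5 TgGRK5-MI libraries lay below the NLC-MI mean and below 4 of the 5 NLC-MI libraries, and NLC-MI replicate 1 lay within the TgGRK5-MI range. The means were 27.2 ± 7.64 CPM and 18.5 ± 1.14 CPM (SD, n = 5 each). On the log2 scale the SD was 4.42 times as large in NLC-MI as in TgGRK5-MI. The log2 fold change was -0.56 (SE 0.19, 95% interval -0.96 to -0.15), a fold of 0.68. edgeR gave an unadjusted p of 0.0111, rank 169 among all genes tested, and an adjusted p of 0.998. The exact permutation test of the difference of mean log2 CPM gave p = 0.0238 (two-sided, smallest possible 0.00794).

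The lower Hdac6 level did not depend on a particular library. Over the 10 fits that each omit a library, the log2 fold change ran from -0.68 without NLC-MI replicate 1 to -0.38 without NLC-MI replicate 4, the library with the highest Hdac6 level, and each of these fits kept an unadjusted p under 0.05. NLC-MI replicate 1 was the only NLC-MI library within the TgGRK5-MI range, so the groups could not overlap once it was left out. That outcome adds no support. With a covariate for Xist and Y-linked RNA the log2 fold change was -0.46, and in the 7 libraries with the most counts it was -0.54. The unadjusted p by edgeR was then 0.0545 and 0.0559, no longer past the threshold. Xist was at 0.916 CPM or less and the Y-linked genes summed to between 158 and 222 CPM in all 10 libraries, the pattern of male mice, so this covariate carries no difference of sex.

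**Figure D2:**
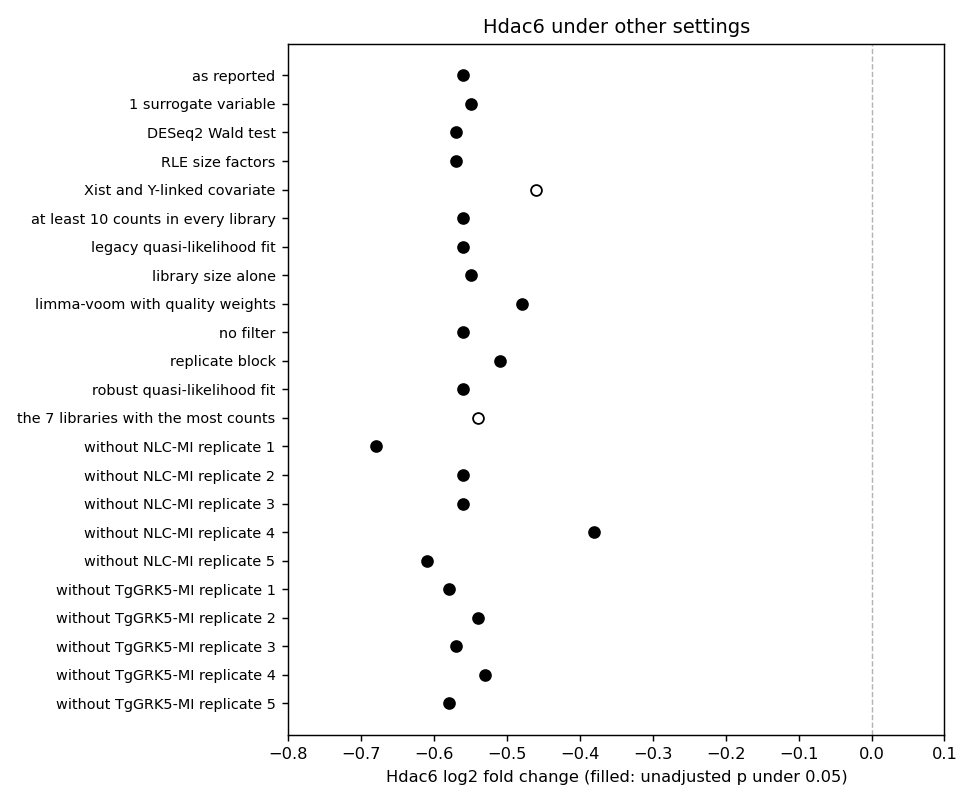
Log2 fold change of Hdac6 (TgGRK5-MI against NLC-MI) as reported and under 22 other settings, one point each, filled where the unadjusted p was under 0.05. All points lie between -0.68 and -0.38, and 20 of the 22 alternatives are filled.

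Median log2 fold changes were lower for longer transcripts, and the longest transcript of Hdac6, with 5037 bases, is the longest among the members. The median log2 fold change was 0.12 over 1033 genes with a longest transcript under 1000 bases, -0.07 over 1988 genes of 5000 to under 7000 bases and -0.16 over 354 genes of 10000 bases or more. Set against the median of its own length range, Hdac6 was at -0.49. For the class I members, the same subtraction left 0.10 for Hdac1, 0.19 for Hdac2, 0.17 for Hdac3 and 0.15 for Hdac8. The ryanodine receptor gene Ryr2, a cardiomyocyte marker, also had a negative log2 fold change, -0.93 (unadjusted p = 0.00902, adjusted p = 0.968, edgeR), as the only gene of its list at an unadjusted p under 0.05. The 10 cardiomyocyte markers together had a median of 0.02, with 5 positive and 5 negative values. In the other marker lists, only the smooth muscle and pericyte marker Abcc9 had an unadjusted p under 0.05. Its log2 fold change was -0.67 (unadjusted p = 0.0314, edgeR). The 8 genes of that list had a median of -0.08, with 3 positive and 5 negative values. Other lists leaned to one side. All 10 macrophage markers (median 0.21) and all 3 neutrophil markers tested (median 0.19) had positive values. All 4 erythroid markers tested had negative values (median -1.48). The fibroblast, endothelial and lymphocyte lists held values of both signs. The part of transcript length or cell makeup in the Hdac6 difference was not tested.

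Hdac10 (ENSMUSG00000062906, chr15:89123307-89128700, minus strand), the other class IIb enzyme, differed little between the groups. It ranged from 7.59 to 14.7 CPM in NLC-MI and from 9.16 to 16.1 CPM in TgGRK5-MI. Between the groups the log2 fold change was -0.05 (95% interval -0.51 to 0.42, exact permutation p = 0.881). The log2 ratio of Hdac6 to Hdac10 within each library had a mean of 1.15 ± 0.49 without the transgene and 0.68 ± 0.27 with it (SD, n = 5 each). This difference of -0.48 between the groups did not pass the exact permutation test (p = 0.111), and it ran from -0.61 without NLC-MI replicate 1 to -0.31 without NLC-MI replicate 3. The data do not show that the class IIb genes responded differently from each other.

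Hdac11 (ENSMUSG00000034245, chr6:91156665-91174692, plus strand) was the most variable member, with a 6.28-fold range over the 10 libraries. NLC-MI replicates 1 to 5 were at 13.0, 12.8, 7.20, 12.3 and 26.4 CPM, and TgGRK5-MI replicates 1 to 5 at 15.1, 9.73, 17.1, 4.20 and 12.8 CPM. The highest value was that of NLC-MI replicate 5 and the lowest that of TgGRK5-MI replicate 4, and the other 8 libraries were intermixed. The log2 fold change was -0.28 with a wide 95% interval of -1.11 to 0.55 (exact permutation p = 0.563), and it was 0.05 without NLC-MI replicate 5. Hdac11 shares 594 exon bases with Gm44002 on the opposite strand, which had 0 counts.

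The class I genes had small positive log2 fold changes, none past an unadjusted p of 0.05. Hdac3 (ENSMUSG00000024454, chr18:37935844-37955016, minus strand) was at 44.5, 47.2, 57.7, 48.5 and 63.0 CPM in NLC-MI replicates 1 to 5. In TgGRK5-MI it was at 58.1, 57.7, 63.2, 58.4 and 54.0 CPM. All 5 TgGRK5-MI libraries lay above the NLC-MI mean, but NLC-MI replicates 3 and 5 lay among them. The log2 fold change was 0.16 (SE 0.13, 95% interval -0.12 to 0.44, unadjusted p = 0.245 by edgeR, exact permutation p = 0.111). limma-voom with quality weights gave 0.25 and an unadjusted p of 0.0273, with an adjusted p of 0.375, in a fit that called 7.47% of all genes higher at an unadjusted p under 0.05.

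Hdac2 (ENSMUSG00000019777, chr10:36974544-37001889, plus strand) ranged from 54.0 to 76.0 CPM in NLC-MI and from 60.0 to 82.4 CPM in TgGRK5-MI. The fitted log2 fold change of Hdac2 was 0.17 (95% interval -0.13 to 0.47, exact permutation p = 0.183). Hdac1 (ENSMUSG00000028800, chr4:129516104-129542713, minus strand), the closest relative of Hdac2, was at 52.1, 43.0, 47.1, 42.7 and 29.1 CPM in NLC-MI replicates 1 to 5. In TgGRK5-MI replicates 1 to 5 Hdac1 was at 42.4, 51.6, 41.6, 51.6 and 49.8 CPM, so that only NLC-MI replicate 5 stood clearly below the others. The log2 fold change of Hdac1 was 0.15 (95% interval -0.20 to 0.50, exact permutation p = 0.357), and 0.03 without NLC-MI replicate 5. The log2 ratio of Hdac1 to Hdac2 was -0.59 in both groups, a difference of -0.01 (exact permutation p = 0.960), and it ranged from -1.38 to -0.22 over the libraries.

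Hdac1 is also the member whose counts are least certain. Of the 50-base windows of its transcript, 58.7% (1167 of 1989) occurred in transcripts of other genes, mostly the processed pseudogene Gm10093. No such window was found for the transcript examined of each of the other 6 members. This search did not flag the 594 exon bases that Hdac11 shares with Gm44002 on the opposite strand, which had 0 counts. Gm10093 matched with 99.38% identity over 1444 bases and Gm4864 with 94.55% identity, and they held 9 counts and 1 count over all libraries. Another processed pseudogene, AC125456.1, matched with 96.28% identity over 1450 bases. It was not among the counted genes and could not be added. Adding Gm10093 and Gm4864 to Hdac1 left the log2 fold change at 0.15. With so few counts beside 360 to 1183 for Hdac1 in each library, this sum could hardly change it. Nor can it show whether reads of pseudogenes were counted as Hdac1. Shorter matches of 129 bases were not added: Gm48789 (96.12% identity) held 558 counts and Gm37750 (94.57% identity) held 303 counts, and neither shared a 50-base window with the Hdac1 transcript examined.

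Hdac8 had the fewest counts, from 40 to 125 per library. In NLC-MI replicates 1 to 5 it was at 5.29, 5.06, 5.23, 3.61 and 5.56 CPM, and in TgGRK5-MI replicates 1 to 5 at 4.83, 5.28, 5.21, 8.29 and 4.94 CPM. Apart from replicate 4 of each group, which lay below and above the rest, the 8 other libraries were within 4.83 to 5.56 CPM. The log2 fold change was 0.20 (95% interval -0.26 to 0.66, exact permutation p = 0.516), and 0.04 without TgGRK5-MI replicate 4.

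**Figure D3:**
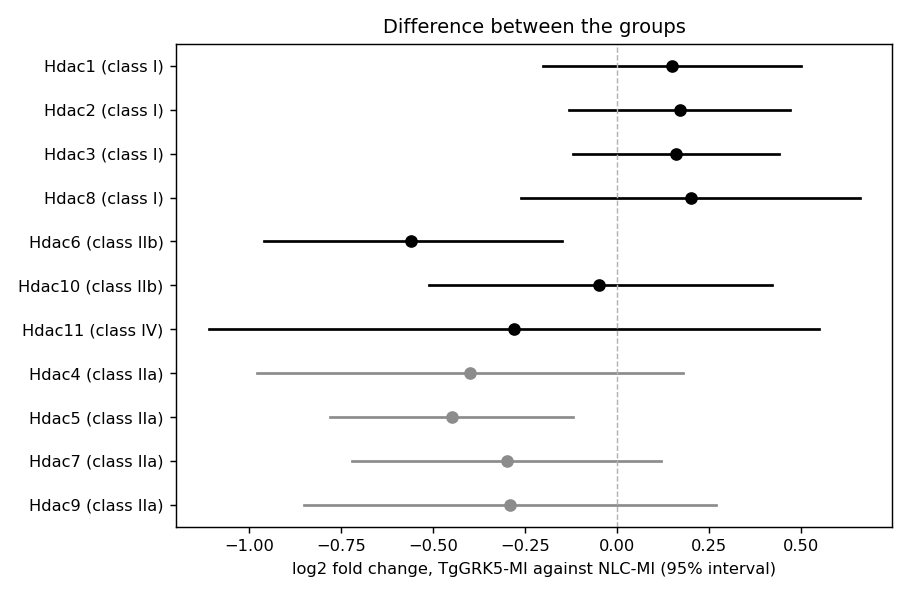
Log2 fold change of TgGRK5-MI against NLC-MI with its 95% interval from edgeR for the 7 members (black) and, for comparison, the 4 class IIa deacetylases (grey). Of the members, Hdac6 alone has an interval that leaves out 0, from -0.96 to -0.15.

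Per kilobase of exon, the class I genes Hdac2, Hdac3 and Hdac1 had the highest levels of the members in these bulk samples. The samples also held RNA of other cells, and the order within cardiomyocytes alone was not tested. Over the 10 libraries, the means were 15.1 ± 2.01 CPM per kilobase for Hdac2, 13.6 ± 1.60 for Hdac3 and 13.1 ± 2.04 for Hdac1 (SD, n = 10). Together with the means of 3.92 ± 1.19 for Hdac6, 3.53 ± 0.767 for Hdac10, 3.40 ± 1.56 for Hdac11 and 1.10 ± 0.241 for Hdac8, they form 3 steps. Of the summed level of the 7 genes, Hdac2 took 28.0%, Hdac3 25.3% and Hdac1 24.5%, whereas Hdac8 took 2.05%. The share of Hdac6 was 8.95% in NLC-MI and 5.77% in TgGRK5-MI.

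Neighbours in this order were compared within libraries, with the exact sign-flip permutation test and p values adjusted over the 6 pairs. The order came from the same libraries, and these p values cover the spread between libraries but not the choice of length. Hdac2 was above Hdac3 in 9 of 10 libraries (1.11-fold, adjusted p = 0.0195), and 1.35-fold above it with the length of the longest transcript. A larger step lay between Hdac1 and Hdac6, in 10 of 10 libraries (3.41-fold, adjusted p = 0.0117), and between Hdac11 and Hdac8, in 9 of 10 libraries (2.84-fold, adjusted p = 0.0117). Hdac3 and Hdac1 did not differ beyond their spread (exact permutation, adjusted p = 0.623), nor did Hdac6 and Hdac10 (0.485) or Hdac10 and Hdac11 (0.485). With the length of the longest transcript in place of all exon bases, Hdac1 came first at 22.1 CPM per kilobase and Hdac11 came next after Hdac3 at 4.93. Hdac3 was then 3.44-fold above Hdac11, in 10 of 10 libraries (adjusted p = 0.00586), so Hdac1, Hdac2 and Hdac3 again lay above the rest. The lower step was smaller with this length: Hdac10 was 1.74-fold above Hdac8, in 9 of 10 libraries (exact sign-flip permutation, adjusted p = 0.0117).

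**Figure D4:**
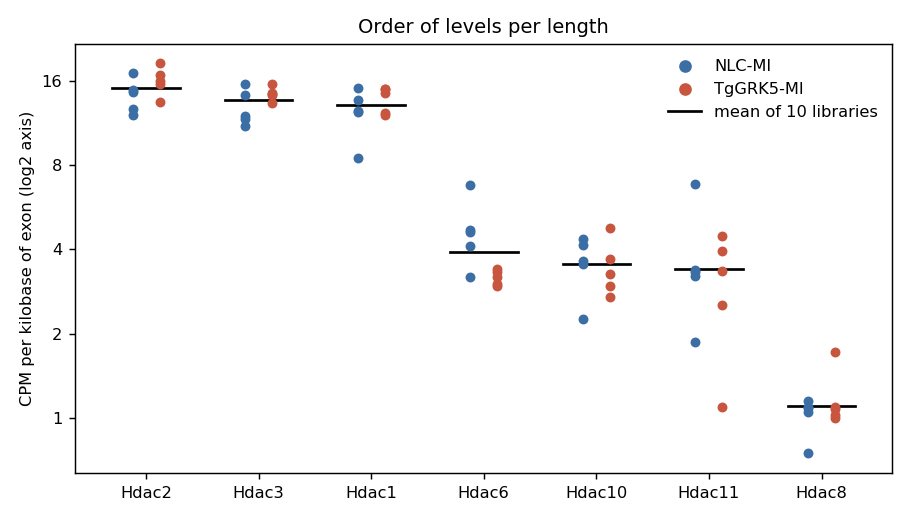
CPM per kilobase of exon (log2 axis) of each member in the NLC-MI and TgGRK5-MI libraries, with the mean of the 10 libraries as a black line. Hdac2, Hdac3 and Hdac1 lie between 8.44 and 18.4, above all other members, and Hdac8 is lowest with a mean of 1.10.

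How the members varied with each other and with the cell markers was examined after their values were seen, in 42 relations over the 10 libraries. The points share their library, so the scaling of a library enters both axes. Hdac1 was lower where the summed cardiomyocyte markers were higher (Pearson's r = -0.899, permutation p = 0.00011, adjusted p = 0.00462; Spearman's rho = -0.964, permutation p = 6e-05). The relation held without the 2 libraries farthest from the median of the markers (r = -0.792) and within each group (r = -0.955 in NLC-MI and -0.931 in TgGRK5-MI, 5 libraries each). The other 41 relations had adjusted p values of 0.286 or more. They include Hdac2 with Hdac3 (r = 0.729, rho = 0.867), Hdac1 with Hdac11 (r = -0.729, rho = -0.612) and Hdac11 with the cardiomyocyte markers (r = 0.601, rho = 0.552), the last of which was 0.077 without the 2 farthest libraries. Also among them were Hdac1 with the macrophage markers (r = 0.661, rho = 0.782) and with the fibroblast markers (r = 0.557, rho = 0.673). Without the 2 farthest libraries, these had r = 0.402 and r = 0.617.

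**Figure D5:**
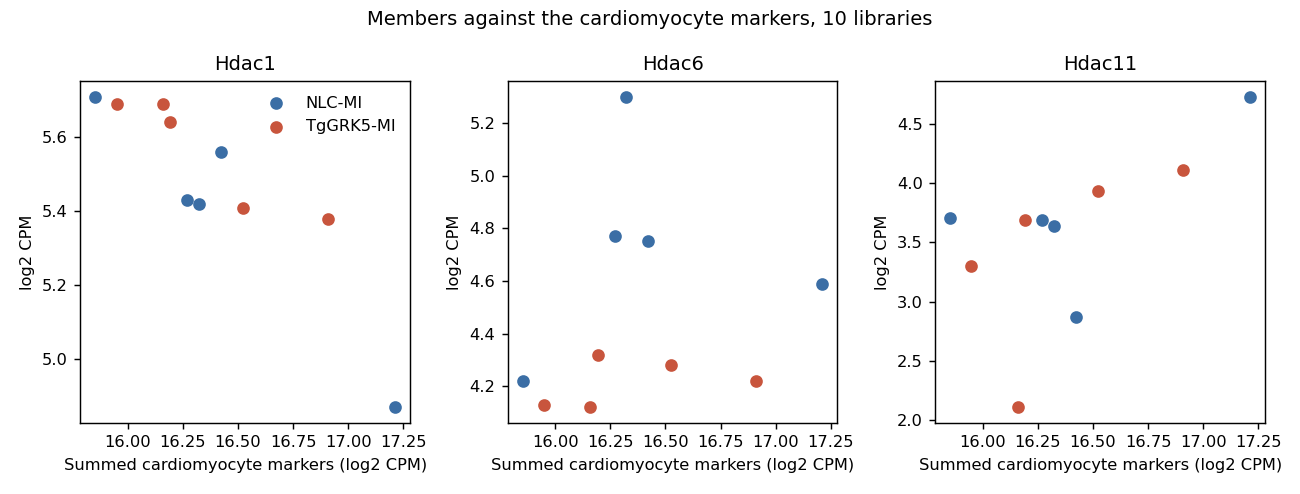
Log2 CPM of Hdac1, Hdac6 and Hdac11 against the log2 of the summed CPM of 10 cardiomyocyte markers, 1 point per library coloured by group. Hdac1 declines from left to right in both groups (r = -0.899 over the 10 libraries). For Hdac6, 4 of the 5 NLC-MI points lie above all TgGRK5-MI points. The groups were not compared at matched marker levels.

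The genes whose log2 CPM followed each member most closely were sought among 10871 genes with a mean of at least 5 CPM, as a description over 10 libraries. For Hdac6 they were Flnc, which encodes the actin crosslinker filamin C (r = 0.969), Ttll4, a tubulin glutamylase (r = 0.946), and Ubr4, a ubiquitin ligase (r = 0.943). For Hdac1 they were Tmem173, the innate immune adaptor STING (r = 0.979), Mospd2 and the kinetochore gene Spc25, and for Hdac2 Gpbp1 (r = 0.986) and Med31. For Hdac3 they were Rmc1 (r = 0.943), Ddx59 and Polr2b, for Hdac8 Mthfd2l (r = 0.970), D3Ertd254e and Peli2, for Hdac10 Ttpal (r = 0.966), Med20 and Dhrs7b, and for Hdac11 Mlycd, the malonyl-CoA decarboxylase (r = 0.978), Apbb1 and Mrps12. The highest r was between 0.943 and 0.986 for every member, so a value of this size does not set Hdac6 or any other member apart.

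No tested gene of the complexes and pathways in which the members work had an adjusted p under 0.10. Over 12 hand-written lists with 114 genes tested, an unadjusted p under 0.05 was found for 1 gene that was higher and for 2 that were lower in TgGRK5-MI, and the median log2 fold change was -0.03. The corresponding shares over all genes were the 1.77% and 2.08% given above. The number of lower genes at this threshold was 12 with limma-voom, a fit that called 4.41% of all genes lower. The higher gene was Hat1, the acetyltransferase of newly made histones, with means of 30.5 ± 7.14 CPM in the controls and 43.6 ± 3.97 CPM with the transgene (SD, n = 5 each) and a log2 fold change of 0.52 (unadjusted p = 0.0102, adjusted p = 0.982, edgeR). Chd4, the ATPase of the NuRD complex that holds Hdac1 and Hdac2, had means of 247 ± 18.1 and 204 ± 19.2 CPM in the same order (SD, n = 5 each), with a log2 fold change of -0.28 (unadjusted p = 0.0487, edgeR). The class IIa gene Hdac5 was the other, with a log2 fold change of -0.45 (unadjusted p = 0.0120, edgeR). All 4 class IIa genes had negative values, from -0.45 to -0.29.

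Among the complexes of Hdac1 and Hdac2, the 12 NuRD genes tested had a median log2 fold change of -0.01, with Chd4 as the only call. The 14 Sin3 genes had a median of 0.02, the 10 CoREST genes -0.16 with 9 values below 0, and the 3 MiDAC genes -0.08, all with 0 calls at an unadjusted p under 0.05. The 5 genes of the NCoR and SMRT complex of Hdac3 (median -0.14) and the 12 genes of cohesin and its regulators, the setting of Hdac8 (median 0.00), also held 0 calls. Around Hdac6, the 16 genes of tubulin acetylation and the aggresome had a median of 0.09 with 0 calls, and around Hdac10 the 11 polyamine genes had a median of -0.05 with 0 calls. Of the remaining lists, the 13 histone acetyltransferases had a median of -0.07 with Hat1 as the only call. The 8 acetyl-lysine readers (median -0.09) and 7 sirtuins (median -0.08) had 0 calls. Chd5 did not pass the filter on low counts.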

How the data were processed

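RNA-seq of cardiomyocytes on day 4 after MI was analysed in 10 libraries. The deposited table holds whole-number read counts by Ensembl identifier, and the values were not normalized by the authors. The submitters' processing notes name mm10, Bowtie2, RSEM 1.2.31 and DESeq2 without their roles. The strand setting, the annotation version and whether the counts are rounded estimates are not given in the sources used here.

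The members, gene lists and tests were chosen with earlier results of these data known, and supplementary lists of the study were not used. Symbols, positions and lengths came from GENCODE M21 (GRCm38), and the list name Mideas was found there under Elmsan1. In R 4.3.3 and edgeR 4.0.16, genes were filtered with filterByExpr, scaled with TMM and tested by quasi-likelihood (glmQLFit and glmQLFTest, not robust, not legacy), with Benjamini-Hochberg adjustment over 15232 genes. Log2 CPM used a prior count of 2. For single genes, an exact permutation test (two-sided, 252 placements) was added, and neighbouring levels were compared by an exact sign-flip test (scipy 1.17.1). Correlations used 100000 permutations. blastn 2.17.0 found pseudogenes (at least 90% identity and length). The fit was tested on 3 sets of simulated counts in which 200 of 15232 genes differed by a log2 change of 2. At an adjusted p under 0.10, from 97.0% to 98.0% of these were recovered, and from 7.18% to 13.3% of the calls were false. Changes as small as those of the members were not simulated. The labels give each replicate as a mouse. Intervals and floors cover counting and replicate error only.

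The text names every member, Grk5, each list gene at an unadjusted p under 0.05, and for each member the 3 most correlated genes, of which 1 is not reported here. Alternatives were RLE factors, library size alone, DESeq2 1.42.0, limma-voom (limma 3.58.1) with quality weights, robust and legacy fits, no filter, a minimum of 10 counts in each library, 1 surrogate variable (sva 3.50.0), an Xist and Y-linked covariate, each library left out, and the replicate number as a block. The 7 libraries with the most counts, the length ranges and the non-overlap counts without a library or with library size alone were added after the data were seen.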

Additional observations from a re-analysis of the deposited data

Results flagged for a closer look

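Hdac8 in NLC-MI replicate 4 was at 3.61 CPM, while the other 4 NLC-MI libraries were at 5.06 to 5.56 CPM. Its gap to the nearest library was 0.742 of the range of the group, above Dixon's critical value at the 95% level for 5 samples. Hdac8 in TgGRK5-MI replicate 4 was at 8.29 CPM, while the other 4 TgGRK5-MI libraries were at 4.83 to 5.28 CPM, with a gap of 0.870 of the range. Both values rest on 77 counts. Chance flags about 1 in 20 groups, and 14 groups (7 members in both conditions) were examined. The other 5 members of classes I and IIb and Hdac11 had no library that stood apart by this measure.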

How the results depend on the processing

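No member reached an adjusted p under 0.10 under any of 22 alternatives, and the class I members kept positive log2 fold changes in all of them. The count of members higher at an unadjusted p under 0.05 was 1 with limma-voom (Hdac3), and the count lower was 0 with the Xist and Y-linked covariate and in the 7 libraries with the most counts. Leaving out a library moved neither count (from 0 to 0 and from 1 to 1). Groups did not overlap for 1 member (Hdac6) with library size alone. With each library left out this count was from 0 to 1. The share of all genes tested without overlap is not given for these settings, so these counts cannot be read against a background. Uncalled values turned in sign: Hdac10 to 0.01 with 1 surrogate variable and, with a library left out (from -0.19 to 0.03), to 0.03 without replicate 4 of either group, and its difference of mean log2 CPM (from -0.20 to 0.04) to 0.04, 0.02, 0.01 and 0.04 without NLC-MI replicates 4 and 5 and TgGRK5-MI replicates 3 and 4. Hdac11 (from -0.46 to 0.05) turned to 0.05 without NLC-MI replicate 5 and its mean difference (from -0.51 to 0.03) to 0.03 without TgGRK5-MI replicate 4. The Hdac1 to Hdac2 difference ran from -0.21 to 0.09 over the libraries left out, and was 0.06, 0.04, 0.02 and 0.05 without NLC-MI replicates 1 to 4 and 0.03 and 0.09 without TgGRK5-MI replicates 1 and 3. The cause was not tested.

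Of the partner genes, 2 were higher with 1 surrogate variable, DESeq2, the Xist and Y-linked covariate, the legacy, limma-voom and robust fits and the 7 deepest libraries. The number lower was 12 with limma-voom, 5 with 1 surrogate variable and in the 7 deepest libraries, and 1 with the covariate, the legacy and robust fits, library size alone, no filter and the replicate block. With libraries left out, the numbers ran from 1 to 2 higher (2 without NLC-MI replicate 3) and from 1 to 5 lower (5 without NLC-MI replicate 1, 4 without NLC-MI replicate 5 or TgGRK5-MI replicate 4, and 1 without NLC-MI replicates 2, 3 or 4 or TgGRK5-MI replicates 3 or 5). The replicate block gave Hdac6 a log2 fold change of -0.51 (p = 0.0310, edgeR), and the exact sign-flip permutation test over the 5 pairs gave p = 0.125 for a difference of -0.51, where the smallest p that 5 pairs allow is 0.0625. The deviations of libraries with a common number correlated over genes at 0.0717, 0.662, 0.381, -0.341 and 0.0848 for numbers 1 to 5. The mean was 0.172 for libraries with a common number and -0.0274 for those with different numbers. The labels do not say what a common number means, and whether such libraries share a batch was not tested. The fewest counts in a library were 40 for Hdac8 and 39 for Hdac11, and 5 libraries per group leave 95% intervals as wide as that of Hdac11.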
